A study of Mus musculus with 12 samples.

Results

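The clustered protocadherin locus of the mouse was taken as chromosome 18, 36700001–38100000 in mm10, and its members were all interactions with both anchors, placed by their midpoints, inside these 1400 kb. Of all 27076118 interactions deposited for the 6 libraries, with those between chromosomes included, 7716 were members. They numbered 3064 in ESC and 2436 in NCC by Hi-C, 467 and 446 by CTCF HiChIP, and 695 and 608 by FGFR1 HiChIP. Hi-C records ligated pairs of distant DNA fragments, and HiChIP enriches such pairs for those bound by a protein, here the architectural protein CTCF or the receptor FGFR1, which also acts in the nucleus. ESC were E14Tg2A embryonic stem cells kept with 100 U/mL of LIF, a cytokine that holds them undifferentiated. NCC were the same line after 48 h with 1 μM retinoic acid in medium without LIF, which begins neuronal differentiation. Each group had 2 biological replicates, which the authors merged, so each cell type and assay was 1 pooled library with no error between replicates. All intervals below are 95% intervals that cover counting error only, and each test compared pooled libraries, not conditions.

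The clustered protocadherins are cadherin-like proteins of the neuronal surface, from which single neurons express different small sets. An alpha or gamma transcript joins 1 of many variable exons, each with its own promoter, to constant exons that the whole cluster shares, whereas each beta gene is a single exon. In neurons, promoters are known to be joined by CTCF and cohesin to enhancers downstream of the alpha cluster and downstream of the gamma cluster, and the latter also serve the beta genes. C-type genes at the 3′ end of the alpha and gamma clusters are expressed more broadly than the other variable exons.

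The locus was divided into the upstream flank (36700001–36920000), the alpha variable exons (36920001–37150000), the alpha downstream end with the alpha constant exons (37150001–37250000), the beta cluster (37250001–37640000), the gamma variable exons (37640001–37820000), the gamma downstream end with the gamma constant exons and much of Diaph1 (37820001–37900000), and the downstream flank (37900001–38100000). In ESC, Hi-C held 12762 read pairs of the locus and 5411 of them joined anchors at least 20 kb apart. The same numbers were 10942 and 4515 for NCC Hi-C, 905 and 339 for ESC CTCF HiChIP, 733 and 323 for NCC CTCF HiChIP, 1263 and 576 for ESC FGFR1 HiChIP, and 1139 and 504 for NCC FGFR1 HiChIP. The libraries held 20745652 and 21228099 read pairs by Hi-C in ESC and NCC, 1218098 and 1056437 by CTCF HiChIP, and 2662606 and 3203872 by FGFR1 HiChIP, so single genes are best measured by Hi-C. Anchors had been called separately in each library and covered 620 and 583 kb of the locus in ESC and NCC by Hi-C, 309 and 297 kb by CTCF HiChIP, and 339 and 349 kb by FGFR1 HiChIP. All of them began and ended at a GATC restriction site. Variable exons of paralogs are near identical in places, so reads of these exons can be lost or shared between genes.

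For each pair of segments, the read pairs at least 20 kb apart were divided by the number expected from the genome-wide mean at the same distance, called the observed over expected ratio. To place a ratio, the same pair of window lengths at the same spacing was moved along the 20 chromosomes in steps of 10 kb, and the placements overlap. The share of placements with at least the same ratio describes how common it is and is not a test.

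Without a correction for density, the gamma variable exons and the gamma downstream end had the highest ratio among the protocadherin segments. ESC Hi-C held 762 read pairs between them, 6.21 times the expectation (5.77 to 6.66), and NCC Hi-C 740, 6.02 times (5.59 to 6.47). Of 256123 placements of the same shape, 0.632% reached this ratio in ESC and 0.677% in NCC, and the median placement had 0.586 and 0.561. CTCF HiChIP gave 52 read pairs and 8.53 times the expectation in ESC, and 47 and 8.39 times in NCC, which 0.0871% and 0.0793% of placements reached. FGFR1 HiChIP gave 78 read pairs and 5.33 times in ESC, and 53 and 3.11 times in NCC. Among themselves the gamma variable exons stood at 3.15 and 3.23 times the expectation by Hi-C in ESC and NCC, and at 3.8 and 2.52 by CTCF HiChIP.

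The level of these gamma ratios depended on how the density of read pairs was treated. In ESC Hi-C the gamma variable exons held 2.89 times and the gamma downstream end 3.03 times the genome-wide density of read-pair ends, against 0.938 for the alpha variable exons, 0.663 for the alpha downstream end and 0.905 for the beta cluster. With an expectation balanced so that each 10 kb bin of the locus kept its own total of read pairs, the gamma variable exons still met the gamma downstream end more than expected, 1.53 times in ESC Hi-C (1.43 to 1.65) and 1.48 in NCC Hi-C (1.38 to 1.59). With themselves the gamma variable exons then stood below the expectation, at 0.806 (0.743 to 0.872) and 0.871 (0.805 to 0.942). The balanced value with the gamma downstream end was 1.45 (1.09 to 1.91) in ESC and 1.69 (1.24 to 2.25) in NCC by CTCF HiChIP. In a further variant the expectation was multiplied by the density of both segments. The ratio between the gamma variable exons and the gamma downstream end then fell below 1, to 0.708 in ESC and 0.824 in NCC Hi-C. The whole locus stood at 0.468 and 0.534 under the same expectation, so both values lay above the level of the locus.

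Without a correction for density, the alpha variable exons and the alpha downstream end were near the expectation by Hi-C and well above it by CTCF HiChIP. Hi-C held 211 read pairs in ESC, 1.31 times the expectation (1.14 to 1.5), and 160 in NCC, 0.995 times (0.847 to 1.16). CTCF HiChIP held 28 in ESC, 3.47 times (2.31 to 5.02), and 25 in NCC, 3.38 times (2.19 to 5), which 3.81% and 3.55% of placements reached. The balanced Hi-C value was 1.62 in both cell types (1.41 to 1.85 in ESC and 1.38 to 1.89 in NCC), and that of CTCF HiChIP was 2.28 (1.52 to 3.30) and 2.26 (1.46 to 3.33). After balancing, the alpha values thus lay above those of the gamma variable exons with the gamma end, with overlapping intervals. With the coverage of both segments in the expectation, the alpha contacts had 2.1 and 2.69 by Hi-C in ESC and NCC. The gamma contacts had 0.708 and 0.824, so the order of alpha and gamma turned.

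The beta cluster had higher ratios with the gamma side of the locus than with the alpha side, an order that turned for the alpha variable exons when the expectation was multiplied by coverage. Between the beta cluster and the gamma downstream end Hi-C held 143 read pairs in ESC, 2.17 times the expectation, and 138 in NCC, 2.13 times. CTCF HiChIP held 12 in each, 3.47 and 3.78 times. With the gamma variable exons the beta cluster had 596 read pairs, 2.04 times, in ESC Hi-C and 433, 1.5 times, in NCC Hi-C. With the alpha variable exons it had 184, 0.908 times, and 142, 0.713 times. With the adjoining alpha downstream end it had 66, 0.332 times (0.257 to 0.422), and 35, 0.177 times (0.123 to 0.246). The alpha downstream end was below the expectation with the beta cluster after balancing too, at 0.596 (0.461 to 0.758) and 0.425 (0.296 to 0.591). With the coverage of both segments in the expectation, the beta cluster had 1.07 and 1.56 with the alpha variable exons in ESC and NCC Hi-C. It had 0.78 and 0.902 with the gamma variable exons, and 0.79 and 1.17 with the gamma end. The whole locus had 0.468 and 0.534 with that correction. The beta cluster with itself stood at 0.708 and 0.475 without that correction. The downstream ends of both clusters shared 5 read pairs in ESC Hi-C and 6 in NCC Hi-C, 0.695 and 0.842 times the expectation, and none in either CTCF HiChIP library.

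**Figure D1:**
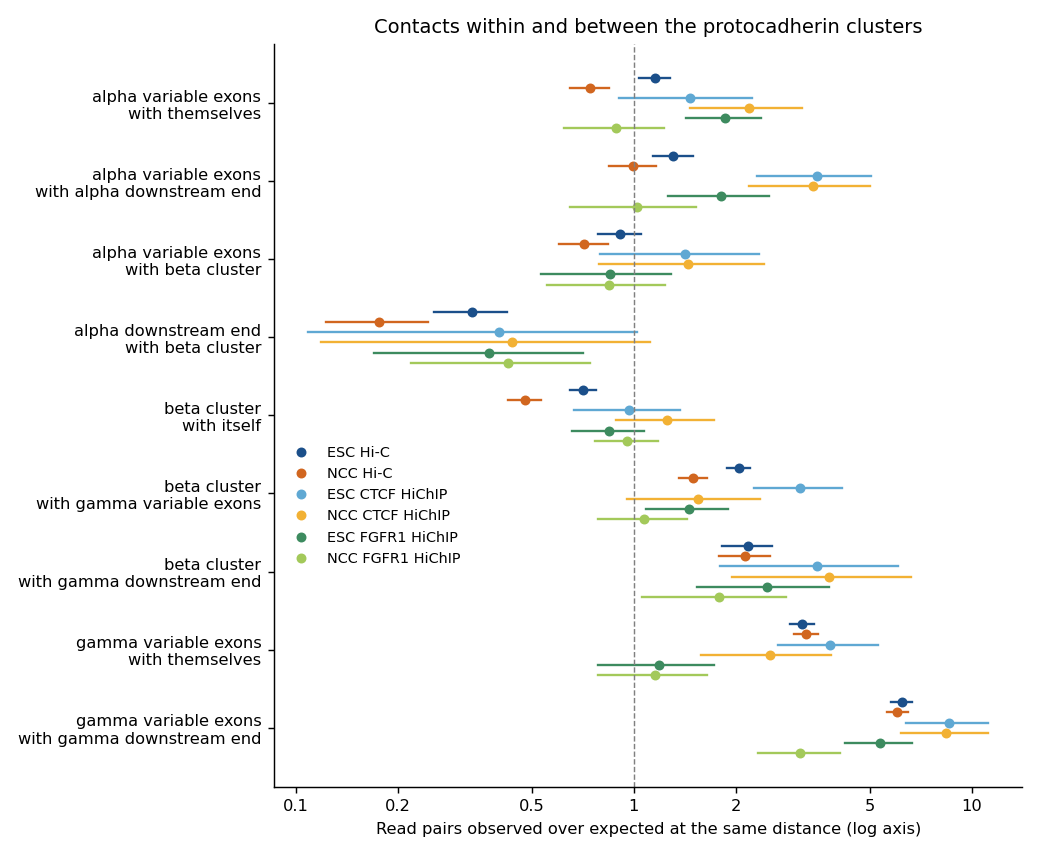
Observed over expected read pairs (log axis) for 9 pairs of protocadherin segments in the 6 pooled libraries. Points are the ratios, bars the exact Poisson 95% intervals for counting error, and the dashed line is the expectation at the same distance. The gamma variable exons with the gamma downstream end lie highest, and the alpha downstream end with the beta cluster lies lowest.

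Seen from the gamma downstream end, contacts along the locus were uneven. In 20 kb bins the Hi-C profile was highest at 37740001–37760000, over the last A and B type gamma variable exons, with 197 read pairs and 14.4 times the expectation in ESC and 165 and 12 times in NCC. A further maximum lay over the distal beta genes, at 37500001–37520000 in ESC with 37 read pairs and 9.66 times, and at 37480001–37500000 in NCC with 31 and 8.9 times. CTCF HiChIP had its highest beta values in the same stretch, on 4 read pairs in ESC and 5 in NCC at 37480001–37500000. Between both maxima, at 37580001–37600000, no Hi-C read pair was found in either cell type, which allows a ratio of up to 0.689 in ESC and 0.702 in NCC.

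**Figure D2:**
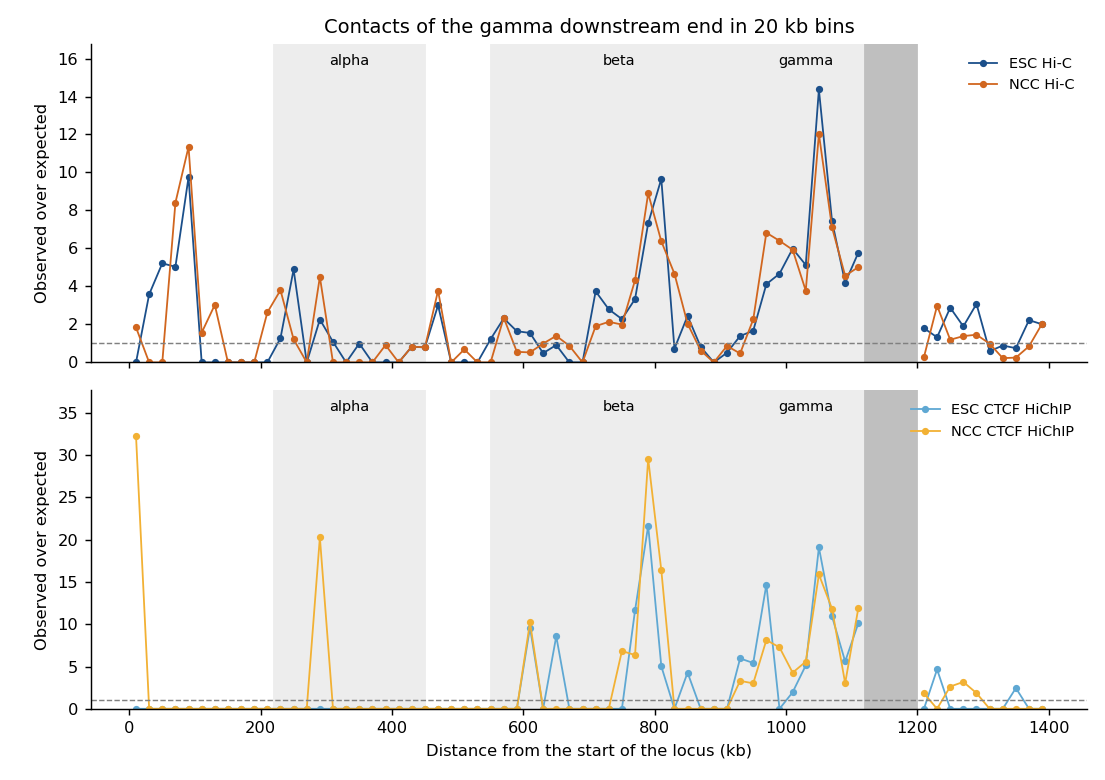
Contacts of the gamma downstream end (dark grey band) in 20 kb bins along the locus, as observed over expected ratios against the distance from the start of the locus in kb, for Hi-C (upper) and CTCF HiChIP (lower). Light grey bands are the alpha variable exons, the beta cluster and the gamma variable exons, and bins far from the gamma end rest on very few read pairs, above all in CTCF HiChIP.

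The genes differed widely within each cluster. For the 10 kb around each of 58 gene starts, contact with the downstream end of the cluster (the gamma end for beta genes) had a median of 1.61 times the expectation over 14 alpha genes in ESC Hi-C and 1.58 in NCC Hi-C, 3.21 and 2.95 over 22 beta genes, and 6.48 and 7.41 over 22 gamma genes. The interval lay above 1 for 6 and 5 of the alpha genes, 10 and 10 of the beta genes, and 21 and 21 of the gamma genes. The share over other windows of the genome was not computed, and these ratios were not corrected for density. In ESC Hi-C the gamma variable exons and the gamma end held 2.89 and 3.03 times the genome-wide density of read-pair ends. These counts therefore do not set the genes apart from other windows of dense regions. In CTCF HiChIP, 7 alpha, 14 beta and 12 gamma genes had no read pair in ESC, and 5, 10 and 5 had none in NCC. Of these, 4, 4 and 6 in ESC and 2, 5 and 5 in NCC had no anchor in the window, so no read pair could be counted, and the NCC values cover only 17 of the 22 beta genes, whose expected count was large enough for a ratio. Windows of neighbouring genes overlap and can share an anchor, so they are not separate measurements. The genes named here were taken by their rank in ESC Hi-C, so those ranks are a description.

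Among the alpha genes, Pcdha12 (ENSMUSG00000103310.1, chr18:37020149-37187657, plus strand) was highest. It had 20 read pairs with the alpha downstream end in ESC Hi-C, 3.73 times the expectation (2.28 to 5.75), and 11 in NCC Hi-C, 2.07 times (1.03 to 3.71). Its CTCF HiChIP contact was 7 read pairs in ESC, 25.7 times (10.3 to 52.9), and 3 in NCC, 12.1 times (2.5 to 35.5). Pcdha9 followed with 16 and 13 read pairs by Hi-C, 3.39 and 2.8 times, and Pcdha3 with 11 and 4, 3.02 and 1.12 times. Pcdha5 had 2 and 6, 0.514 and 1.57 times, and Pcdha2 had 3 and 6, 0.852 and 1.74 times. For each of these 5 genes the Hi-C intervals of ESC and NCC overlapped. The C-type gene Pcdhac1 had 18 and 14 read pairs, 2.04 and 1.58 times, with 4 in ESC CTCF HiChIP and 0 in NCC. Pcdhac2, the variable exon nearest to the constant exons, had 20 and 36, 1.44 (0.881 to 2.23) and 2.57 (1.8 to 3.55) times.

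Among the beta genes, contact with the gamma end was concentrated at the distal side. Pcdhb17 (ENSMUSG00000046387.5, chr18:37484795-37489454, plus strand) and the adjoining Pcdhb18 each had 26 read pairs in ESC Hi-C, 14.9 and 14.6 times the expectation, and 18 in NCC Hi-C, 10.5 and 10.3 times. Pcdhb18 also had 4 and 5 read pairs in ESC and NCC CTCF HiChIP, 43.3 (11.8 to 111) and 59.1 (19.2 to 138) times. Pcdhb21 had 21 and 15 by Hi-C, 10.8 and 7.85 times, and none by CTCF HiChIP. Pcdhb5, Pcdhb8 and Pcdhb9, at the proximal side and in the middle, had 0, 0 and 0 read pairs in ESC Hi-C and 0, 0 and 1 in NCC Hi-C. For Pcdhb5 a count of 0 allows a ratio of up to 3.69 in ESC, so a contact at the median of the beta genes was not detectable there.

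Among the gamma genes the last ones before the C-type genes were highest. Pcdhgb8 (ENSMUSG00000103081.2, chr18:37761801-37841870, plus strand, annotated as a polymorphic pseudogene) had 191 read pairs with the gamma downstream end in ESC Hi-C, 25 times (21.6 to 28.8), and 119 in NCC Hi-C, 15.5 times (12.9 to 18.6). In the 20 kb around the start the ratios were 17.6 and 15.6, and in NCC a single anchor at 37750926–37758870 covered what ESC split into 2 anchors, so part of its read pairs counted outside the 10 kb window. CTCF HiChIP gave 17 in ESC, 44.9 times (26.1 to 71.9), and 9 in NCC, 25.8 times (11.8 to 48.9). Pcdhga11 had 146 and 121 by Hi-C, 20.2 and 16.7 times, and Pcdhga12 had 124 and 119, 15.6 and 14.9 times. At the proximal side Pcdhga1 had 8 and 15, 2.09 and 3.97 times, and Pcdhga5 had 10 and 21, 2.16 and 4.58 times.

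The gamma C-type genes had the shortest distance to the gamma end. Pcdhgc3 (ENSMUSG00000102918.1, chr18:37806364-37841873, plus strand) had 110 read pairs in ESC Hi-C and 71 in NCC Hi-C, 8.67 (7.12 to 10.4) and 5.52 (4.31 to 6.97) times, and 12 and 13 by CTCF HiChIP, 19.4 and 22.8 times. Pcdhgc4 had 31 and 53 by Hi-C, 2.63 (1.79 to 3.73) and 4.44 (3.32 to 5.8) times, and Pcdhgc5 had 47 and 82, 4.13 (3.04 to 5.5) and 7.12 (5.66 to 8.83) times. In windows of 20 kb the values were 6.44 and 2.79 for Pcdhgc3, 6.66 and 6.41 for Pcdhgc4, and 2.29 and 4.26 for Pcdhgc5, so they moved with the window. Pcdhgc4 and Pcdhgc5 lie next to the gamma end and had 0 and 0 read pairs in ESC CTCF HiChIP and 0 and 1 in NCC.

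Genes between and beside the clusters were set against the gamma end too. Taf7, a subunit of the general transcription factor TFIID, had no read pair in either Hi-C library. Slc25a2, a mitochondrial ornithine carrier, had 4 in ESC Hi-C and 0 in NCC Hi-C, 1.18 and 0 times the expectation. The start of Diaph1, a formin whose gene body covers much of the gamma end, had 29 and 47, 2.89 and 4.65 times, and Hdac3, a histone deacetylase, had 20 and 16, 2.54 and 2.02 times. The Diaph1 and Hdac3 values lay within the range of the gamma genes.

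**Figure D3:**
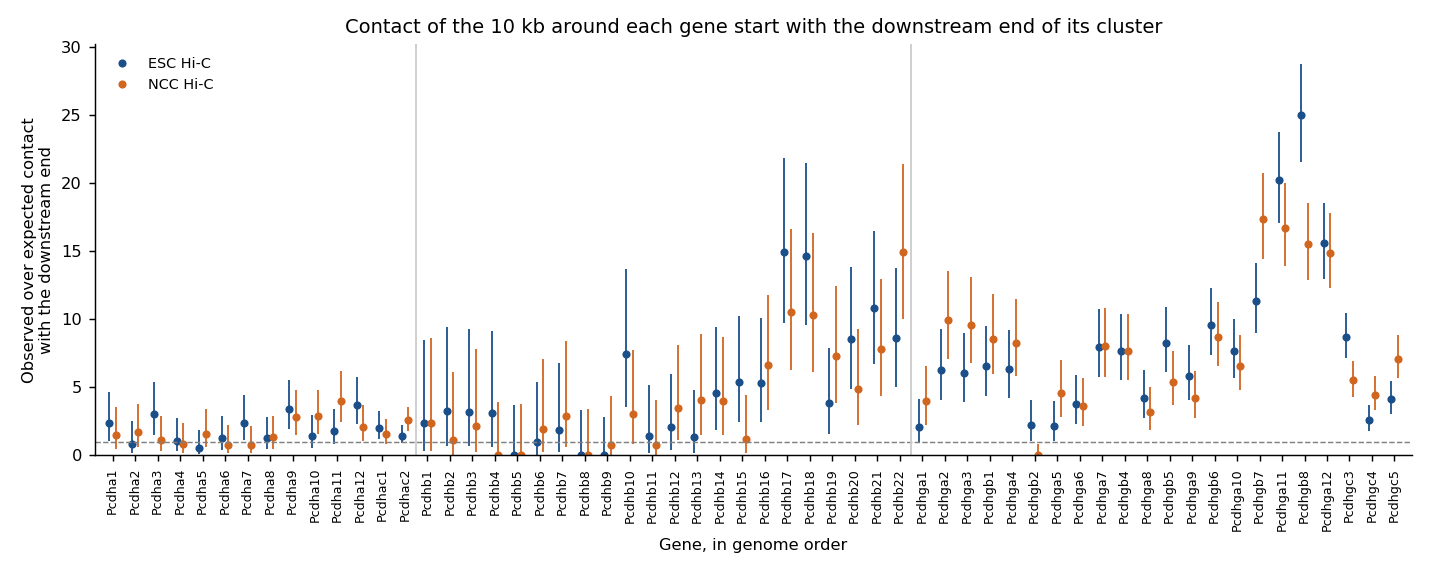
Observed over expected Hi-C contact of the 10 kb around each of 58 gene starts with the downstream end of its cluster, in ESC and NCC, with genes in genome order and clusters separated by grey lines. Bars are exact Poisson 95% intervals for counting error, and the values are highest over the last A and B type gamma genes, from Pcdhgb7 to Pcdhga12, with a further rise over the distal beta genes.

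Among the strongest single interactions over 50 kb were those that joined the last A and B type gamma exons to the gamma end. In ESC Hi-C the anchor at 37762569–37767776, over coding exons of Pcdhgb8 and Pcdhga12, had 32 read pairs with 37834800–37846722, over the gamma constant exons and the end of Diaph1, and 22 with 37875238–37882105 in a Diaph1 intron. In NCC Hi-C the anchor at 37750926–37758870, over exons of Pcdhgb7 and Pcdhga11, had 33 with 37876287–37882105 and 32 with 37848814–37857367. By CTCF HiChIP the anchor at 37760303–37764002, over Pcdhgb8, had 3 read pairs with 37837753–37844314 and 3 with 37879829–37882105 in ESC, and the anchor at 37764973–37766717, over Pcdhga12, had 4 with 37879829–37882105 in NCC.

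Within the gamma end, CTCF HiChIP and NCC FGFR1 HiChIP were spread less evenly than Hi-C. Of the read pairs that the gamma end shared with the beta cluster and the gamma variable exons, 25 of 64 in ESC and 25 of 59 in NCC CTCF HiChIP fell in the 20 kb from 37870001, which is 39.1% (Wilson interval 28.1 to 51.3) and 42.4% (30.6 to 55.1). Hi-C placed 24.3% (21.6 to 27.2) and 28% (25.1 to 31.1) there. The middle 20 kb, from 37850001, held 8 and 5 CTCF HiChIP read pairs, 12.5% and 8.47%, against 26.6% and 29.6% by Hi-C. The 20 kb from 37830001, with the constant exons, held 26 and 22, 40.6% and 37.3%, against 31.7% and 25.4%. NCC FGFR1 HiChIP had 43.7%, 12.7% and 38% in the parts from 37830001, 37850001 and 37870001, and ESC FGFR1 HiChIP 34.3%, 27.3% and 23.2%. Neither CTCF HiChIP library had an anchor at 37850001–37860000, so no read pair could be counted there. For the beta cluster alone, 8 of 12 read pairs in ESC and 7 of 12 in NCC fell in the part from 37870001.

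At the alpha end, the 20 kb from 37210001 held 8 of 28 CTCF HiChIP read pairs with the alpha variable exons in ESC and 9 of 25 in NCC, 5.98 (2.58 to 11.8) and 7.35 (3.36 to 13.9) times the expectation. Hi-C held 21 and 27 there, 0.792 (0.49 to 1.21) and 1.03 (0.676 to 1.49) times. The 20 kb from 37170001, with the alpha constant exons, was highest by Hi-C in ESC, with 78 read pairs and 2.06 times, and had 48 and 1.26 times in NCC.

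Differentiation was the first question the design addressed. To compare NCC with ESC, the ratio of NCC to ESC read pairs was divided by the genome-wide ratio at the same distance and given as log2. Hi-C contacts between the gamma variable exons and the gamma end (762 and 740 read pairs) had a log2 ratio of −0.04 (−0.19 to 0.10), those of the beta cluster with the gamma end (143 and 138) −0.03 (−0.37 to 0.32), and those within the gamma variable exons (611 and 634) 0.04 (−0.12 to 0.20). None of these differed beyond counting error. The first interval reaches 0.19 downward and 0.10 upward, but it leaves out differences between replicates. It therefore cannot exclude a larger change with differentiation.

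Contacts with the downstream flank, which holds Hdac3, Rell2, Fchsd1 and Arap3, were lower in NCC Hi-C. Those of the gamma variable exons numbered 295 in ESC and 178 in NCC, a log2 ratio of −0.71 (−0.98 to −0.43), and those of the gamma end 232 and 162, −0.52 (−0.82 to −0.22). Within the flank they numbered 690 and 545, −0.35 (−0.52 to −0.19). The lower values remained when only interactions whose anchors overlap an anchor of the other library were used, at −0.64 (−0.92 to −0.36), −0.49 (−0.80 to −0.19) and −0.39 (−0.56 to −0.22). The share of same-shaped placements was not computed for pairs with the flank, so how common such values are was not measured.

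Within the alpha and beta clusters NCC Hi-C was also lower, together with fewer anchors. The alpha variable exons had 338 read pairs among themselves in ESC and 219 in NCC, −0.64 (−0.89 to −0.39), with 30 and 24 anchors over 101 and 80.8 kb. The beta cluster had 473 and 319, −0.58 (−0.79 to −0.37), with 47 and 36 anchors over 151 and 115 kb. The alpha variable exons with their downstream end had 211 and 160, −0.40 (−0.70 to −0.09). Of same-shaped placements, 6.13%, 8.41% and 14.3% had a ratio at most as low. Over anchors found in both libraries the 3 values were −0.19 (−0.46 to 0.08), −0.08 (−0.31 to 0.15) and −0.08 (−0.42 to 0.26), so these differences were not detectable where both libraries had an anchor. The beta cluster with the gamma variable exons had 596 and 433, −0.45 (−0.63 to −0.27), and −0.22 (−0.41 to −0.03) over shared anchors.

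For CTCF HiChIP, 1 pair of protocadherin segments differed beyond counting error between ESC and NCC. Contacts of the gamma variable exons with the gamma end (52 and 47 read pairs) had a log2 ratio of −0.02 (−0.62 to 0.57) and the alpha variable exons with the alpha end (28 and 25) −0.04 (−0.88 to 0.79). The beta cluster with the gamma variable exons had 46 read pairs in ESC and 21 in NCC, −1.0 (−1.82 to −0.23), and −1.16 (−2.22 to −0.18) over shared anchors. Placements of the same shape had a ratio at most as low in 12.3% of cases. Within the downstream flank the 4 read pairs of ESC stood against 26 in NCC, 2.82 (1.29 to 4.80). For the whole locus the ratio was −0.26 (−0.32 to −0.20) by Hi-C and 0.05 (−0.18 to 0.27) by CTCF HiChIP. Among 1420 windows of 1.4 mb along the genome, 14.2% and 54.6% had a lower value.

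**Figure D4:**
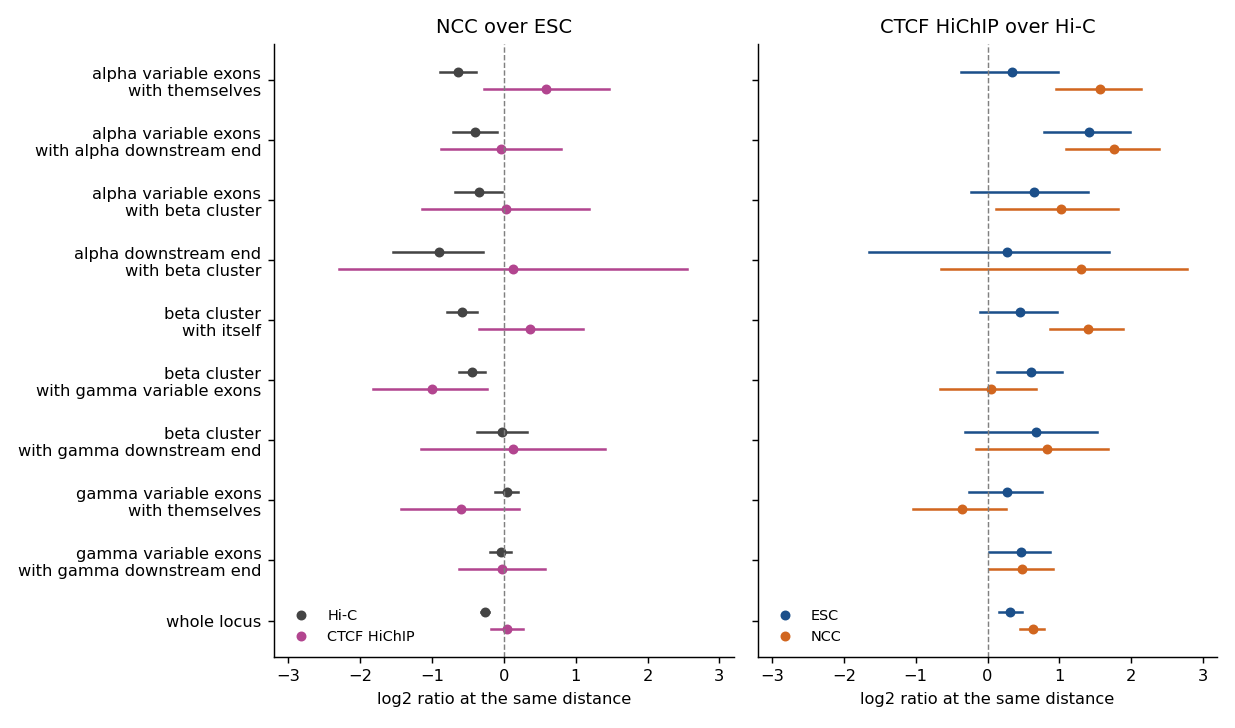
Log2 ratios at the same distance for 9 pairs of protocadherin segments and the whole locus. The left panel gives NCC over ESC for Hi-C and CTCF HiChIP, the right panel CTCF HiChIP over Hi-C in ESC and NCC. Points are the ratios and bars the exact binomial 95% intervals for counting error. The gamma variable exons with the gamma end lie near 0 in the left panel, and the alpha variable exons with the alpha end lie furthest above 0 in the right panel.

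An exact binomial test of each pair of 50 kb bins with at least 10 read pairs in both libraries together, called at an adjusted p of at most 0.05 and adjusted by Benjamini-Hochberg over all pairs tested in the genome, called 2 of 146 tested bin pairs of the locus higher and 8 lower in NCC Hi-C. Genome-wide 3.02% of tested pairs were called higher and 3.06% lower. A paired t-test over 10 kb bins nested in the 50 kb bins called 0 higher and 0 lower. It was adapted from the study's methods, with other bin sizes and with Benjamini-Hochberg adjustment, and is not the authors' own procedure. The exact test with 25 kb bins called 0 higher and 3 lower. Of the 8 lower pairs of 50 kb bins, 4 lay in the alpha and beta clusters. The pair of 37050001–37100000 with 37100001–37150000, which hold Pcdhac1 and Pcdhac2, fell from 57 read pairs in ESC to 18 in NCC (log2 −1.68, adjusted p = 0.000447 by the exact binomial test), and from 33 to 18 over shared anchors. The pair starting at 37200001 and 37250001, across the end of the alpha cluster, fell from 19 to 3 (−2.68, adjusted p = 0.0193 by the exact test). Bins starting at 37500001 and 37600001 fell from 34 to 9 (−1.92), and those at 37400001 and 37500001 from 47 to 19 (−1.31). Over shared anchors the last 3 pairs had 11 and 3, 12 and 9, and 36 and 19.

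The 4 other lower pairs involved the downstream flank. The bin of the gamma exons at 37700001 fell from 20 to 4 with that at 38050001 (−2.30) and from 33 to 12 with that at 37950001 (−1.43), with the same read pairs over shared anchors. The bins at 37850001 and 37900001 fell from 109 to 56 (−0.98, adjusted p = 0.00171 by the exact test) and those at 37900001 and 37950001 from 155 to 102 (−0.63). Over shared anchors these fell less, from 82 to 54 and from 143 to 102. The 2 higher pairs lay in the upstream flank or reached from it to the start of the alpha cluster, and rose from 3 to 17 read pairs (2.48) and from 8 to 29 (1.84), and from 1 to 3 and from 7 to 14 over shared anchors.

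Between NCC and ESC CTCF HiChIP none of 15 tested bin pairs was called by the exact binomial test, and 0 had an unadjusted p under 0.05. Genome-wide 0.433% were called higher and 0.618% lower, and 13.7% had an unadjusted p under 0.05. For FGFR1 HiChIP none of 26 was called, against 1.57% called higher and 1.96% called lower genome-wide. Of these 26, 3 had an unadjusted p under 0.05, against 17.4% genome-wide. In simulated data with counting error only and few changed bin pairs, changes of 4 times were found in 25.5% of these by Hi-C. Each HiChIP comparison of NCC with ESC found 3.5%. In the real Hi-C data 16.4% of tested pairs had an unadjusted p under 0.05, and more pairs were called than in the simulation. The simulated shares are therefore not the detection rates of the tests above. Changes of this size could be missed, and how often was not measured.

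CTCF HiChIP was then compared with Hi-C of the same cells. Relative to Hi-C at the same distance, contacts between the alpha variable exons and the alpha end were enriched in CTCF HiChIP, with 28 against 211 read pairs in ESC, a log2 ratio of 1.41 (0.78 to 1.98), and 25 against 160 in NCC, 1.77 (1.10 to 2.38). Only 0.579% and 0.504% of same-shaped placements with enough read pairs reached these values. Over anchors found in both assays the values were 1.56 (0.75 to 2.30) and 1.43 (0.55 to 2.23). These log2 ratios were not corrected for density. In ESC and NCC, CTCF HiChIP held 1.41 and 1.78 times the genome-wide density of read-pair ends in the alpha variable exons. Hi-C held 0.938 and 0.71 times. With the coverage of both segments in the expectation the order turned. The alpha contacts then stood at 1.73 and 1.54 times by CTCF HiChIP, below 2.1 and 2.69 by Hi-C. The balanced values given above kept the order, with overlapping intervals. Contacts of the gamma variable exons with the gamma end had a log2 ratio of 0.46 (0.03 to 0.87) in ESC and 0.48 (0.02 to 0.91) in NCC, which 4.98% and 3.77% of placements reached. Over shared anchors these were 0.59 (0.14 to 1.01) and 0.29 (−0.18 to 0.74). The beta cluster with the gamma end had 0.68 (−0.31 to 1.53) and 0.83 (−0.16 to 1.68), within counting error of no difference. With interactions of at least 2 read pairs only, the alpha value was 2.84 in ESC and the gamma values were 1.76 in ESC and 2.08 in NCC.

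Contacts within the alpha and beta clusters were compared with Hi-C in the same way. In NCC the alpha variable exons among themselves had 29 CTCF HiChIP read pairs against 219 by Hi-C, 1.57 (0.95 to 2.13), and the beta cluster 38 against 319, 1.4 (0.88 to 1.89). In ESC the values were 0.34 (−0.37 to 0.98) and 0.46 (−0.11 to 0.97), and the difference between the cell types was not tested. Over shared anchors the alpha values were 0.53 (−0.36 to 1.31) in ESC and 0.67 (−0.16 to 1.4) in NCC, and the beta values 0.52 (−0.19 to 1.16) and 0.99 (0.35 to 1.57), with overlapping intervals. The downstream flank with itself was depleted in ESC CTCF HiChIP, with 4 read pairs against 690, −3.08 (−4.96 to −1.71), and had 26 against 545 in NCC, 0.10 (−0.53 to 0.67). The whole locus had 0.32 (0.15 to 0.47) in ESC and 0.63 (0.46 to 0.79) in NCC.

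By pairs of 50 kb bins, 1 of 111 in ESC and 2 of 93 in NCC were called higher in CTCF HiChIP than in Hi-C by the exact binomial test, and none lower. Genome-wide 0.189% and 0.0299% were called higher and lower in ESC, and 0.39% and 0.0662% in NCC. With 25 kb bins 0 were higher in either cell type, and by library totals the ESC comparison had 0 higher and 1 lower. The pair at 37250001 and 37300001, at the proximal beta genes, had 9 against 27 read pairs in ESC (log2 2.77, adjusted p = 0.0348 by the exact test), and 7 against 16 over shared anchors. The pair at 37000001 and 37050001, in the alpha variable exons, had 7 against 12 in NCC (3.71, adjusted p = 0.00924 by the exact test), and only 1 against 6 over shared anchors. The other, in the upstream flank, had 8 against 24 (2.90). An unadjusted p under 0.05 was found for 11 of 111 bin pairs in ESC and 11 of 93 in NCC. Genome-wide 4.74% and 5.18% of tested pairs had one.

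Interaction anchor strength, the number of ends of read pairs from 20 kb to 1.4 mb apart, was compared in 20 kb bins, of which 28 of 70 in ESC and 24 in NCC had at least 10 CTCF HiChIP ends expected from Hi-C. The ratio to Hi-C was at least 2 in 2 bins in ESC, where 3.03% of compared bins reached it genome-wide, and in 2 bins in NCC, where 2.48% did. The bin at 37880001–37900000, within Diaph1 at the distal side of the gamma end, was among them in both cell types, with 40 ends in ESC, a ratio of 2.27, and 41 in NCC, 2.99. This ratio depended on where anchor midpoints fell. The Hi-C anchors 37875238–37882105 in ESC and 37876287–37882105 in NCC counted in the bin before, whereas the CTCF HiChIP anchor 37879829–37882105 over the same stretch counted in this one. Over the 20 kb from 37870001, which hold all of these anchors, the contacts with the beta cluster and the gamma variable exons were 12.2 (7.86 to 17.9) and 13.3 (8.58 to 19.6) times the expectation by CTCF HiChIP in ESC and NCC, against 5.46 (4.76 to 6.23) and 6.16 (5.42 to 6.98) by Hi-C. The others were 36740001–36760000 in ESC, which holds Ik, at 3.36, and 37840001–37860000 in NCC, at the end of the gamma constant exons, at 2.13. A ratio of at most 0.5 was found in 5 bins in ESC and 2 in NCC, where 28.7% and 35.9% of compared bins had one genome-wide. All of these lay in the flanks, 1 upstream at 36760001 (0.273 and 0.215) and the others downstream, at 37940001, 38040001, 38060001 and 38080001 in ESC (0.180 to 0.289) and at 37980001 in NCC (0.372). With at least 20 expected ends no bin reached a ratio of 2 in either cell type.

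**Figure D5:**
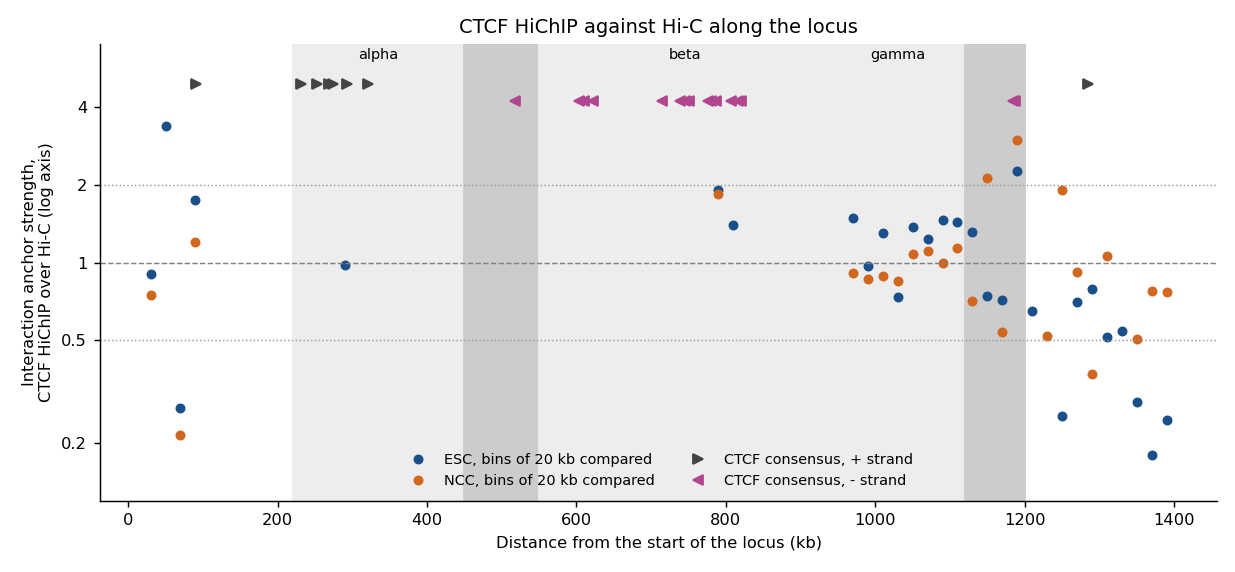
Ratio of interaction anchor strength in CTCF HiChIP to that in Hi-C (log axis) for the 20 kb bins with enough expected ends, against the distance from the start of the locus in kb, with dotted lines at the called ratios of 0.5 and 2. Triangles mark CTCF consensus sites by strand, light grey bands are the alpha variable exons, the beta cluster and the gamma variable exons, and dark grey bands the downstream ends. Sites of the alpha variable exons all lie on the plus strand, and those from the alpha end to the gamma end all on the minus strand.

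The sequence of the locus was searched for the CTCF consensus on both strands. It held 24 sites, 17.1 per mb against 4.97 per mb over the 20 chromosomes, and 15% of its 10 kb windows held at least 1, against 4.71% of 255946 windows genome-wide. GC content was 42.5%, against 41.8% genome-wide. The 6 sites of the alpha variable exons were all on the plus strand and each lay in a coding exon, of Pcdha1, Pcdha4, Pcdha6, Pcdha7, Pcdha8 and Pcdha12, 537 to 581 bases after the gene start. The alpha end had 1 site (37217468–37217479), the beta cluster 13 and the gamma end 2 (from 37883728 and 37887168, both within Diaph1), all on the minus strand. All 13 beta sites lay in a coding exon of a beta gene too. Measured from the nearest gene start, 9 of them lay 2271 to 2412 bases after it, and the site in Pcdhb22 lay 2810 bases after it. The sites in Pcdhb15, Pcdhb17 and Pcdhb21 were nearer to the start of the next gene than to that of their own. In the gamma variable exons the search found none, which says only that these letters were not found there. A match to the consensus is not evidence of binding.

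These sites met the contacts described above in a few places. The site of the alpha end lies in the 20 kb part from 37210001 and in an anchor with 6 CTCF HiChIP read pairs over 20 kb in ESC and 12 in NCC. The site of Pcdha12, the alpha gene highest by Hi-C, lies in an anchor with 15 and 10 CTCF HiChIP and 107 and 73 Hi-C read pairs. Both gamma sites lie in the bin at 37880001–37900000. Anchors that hold them had 10 and 7 CTCF HiChIP read pairs over 20 kb in ESC. In NCC the anchor of the first site had 19, and the second site lay in no anchor. The CTCF HiChIP anchor 37879829–37882105, which counted in the same bin and carried interactions named above, holds neither site. Over all anchors of the locus, those with a site held 1.4 times as many read-pair ends per kb as those without in ESC CTCF HiChIP (11 of 121 anchors) and 1.58 times in NCC (9 of 119), against 1.11 and 1.15 times by Hi-C and 1.04 and 1.20 times by FGFR1 HiChIP.

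FGFR1 HiChIP differed from Hi-C in several segments, below it in the gamma cluster and above it in others. Within the gamma variable exons there were 27 FGFR1 HiChIP read pairs in ESC and 31 in NCC, 1.19 and 1.16 times the expectation and below Hi-C with log2 ratios of −1.41 (−2.02 to −0.85) and −1.48 (−2.05 to −0.96), or −1.11 (−1.83 to −0.47) and −0.91 (−1.49 to −0.37) over shared anchors. Of same-shaped placements with enough read pairs, 4.43% and 9.1% had a ratio to Hi-C at most as low as the values over all anchors. Within the beta cluster there were 67 read pairs in ESC and 89 in NCC, 0.26 (−0.14 to 0.63) and 1.01 (0.66 to 1.35) over Hi-C, and 0.65 (0.18 to 1.09) and 0.95 (0.45 to 1.43) over shared anchors. The values over all anchors were reached by 31.3% and 13.3% of such placements. The upstream flank with the alpha variable exons had 42 and 23, 1.7 (1.15 to 2.23) and 0.41 (−0.30 to 1.06), and 1.27 (0.55 to 1.96) and 1.34 (0.52 to 2.12) over shared anchors. No share of placements was computed for this pair of segments. From ESC to NCC the FGFR1 contacts of the gamma variable exons with the gamma end had 78 and 53 read pairs, −0.78 (−1.31 to −0.26), and those of the alpha variable exons among themselves 64 and 36, −1.06 (−1.69 to −0.45). Ratios at most as low were found in 34.5% and 7.41% of same-shaped placements. Over shared anchors, which held 39.1% of the ESC and 52.6% of the NCC read pairs, the direction turned, to 0.29 (−0.46 to 1.05) and 0.16 (−0.77 to 1.11).

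The gamma end also had contacts beyond the clusters, over 1 mb upstream. The 20 kb bin at 36780001–36800000 in the upstream flank shared 6 read pairs with it in ESC Hi-C, 9.75 times the expectation (3.58 to 21.2), and 7 in NCC Hi-C, 11.4 times (4.56 to 23.4), and none in either CTCF HiChIP library. The bin was noticed for its values, and at this distance a ratio rests on an expectation of under 1 read pair.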

How the data were processed

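Hi-C, FGFR1 HiChIP and CTCF HiChIP of ESC and NCC were deposited as 1 table of interactions per group, in which the authors had merged 2 biological replicates. The authors mapped reads to mm10 and paired them with HiC-Pro and called anchors and interactions with hichipper, with versions not given in the sources used here. The score column, used as deposited by the authors, is the count of read pairs joining both anchors, with no filter on significance. Anchors follow restriction sites and the depth of each library and differ between libraries, so a region without an anchor gives no count.

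Interactions within 1 of 20 chromosomes were kept, with anchors placed at their midpoints. Expected counts came from the genome-wide number of read pairs in distance classes of 5 kb divided by the pairs of positions at that distance. Intervals are exact Poisson, exact binomial (for ratios) or Wilson (for shares) at 95%. The balanced expectation fitted the total of each 10 kb bin. Ratios over shared anchors used only interactions whose anchors overlap one of the other library, in the locus and in the genome-wide expectation. Exact binomial tests were adjusted by Benjamini-Hochberg over the genome and tested on simulated data with counting error only. Genes were taken from GENCODE M21. The CTCF consensus was searched on both strands of mm10, and no bases are shown. Named genes were the C-type genes, the 3 highest and 2 lowest of each cluster in ESC Hi-C (3 lowest for beta, which tied at 0), and Taf7, Slc25a2, Diaph1 and Hdac3. The members and lists were chosen with earlier results of these data known. Python 3.11.15 was used with numpy 2.4.6, scipy 1.17.1, pandas 2.3.3 and matplotlib 3.10.9.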

Additional observations from a re-analysis of the deposited data

How the results depend on the processing

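No paired analysis was possible because the authors had merged the replicates of each group before deposit, and for the same reason leaving out a replicate was not run. All 98 values of segment contacts kept their direction and moved by less than their counting interval with a shortest distance of 10 or 50 kb and with anchors wholly inside a segment, and 97 and 96 of 98 did so with the bounds moved by 10 kb upstream and downstream. Depth limits CTCF HiChIP most, where single genes rest on 17 read pairs or fewer, and the cause of the changes below was not tested.

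The density correction changed the observed over expected ratios most. Multiplied by the coverage of both segments, the expectation gave lower ratios for the gamma variable exons with the gamma end. These were 0.708 and 0.824 in ESC and NCC Hi-C and 0.655 and 0.821 in CTCF HiChIP. The whole locus stood at 0.468 and 0.534 by Hi-C and 0.493 and 0.546 by CTCF HiChIP. The beta cluster with the gamma end then had 0.79 and 1.17 by Hi-C and 0.819 and 0.791 by CTCF HiChIP, and with the gamma variable exons 0.78 and 0.902 by Hi-C and 0.703 in ESC CTCF HiChIP. The alpha variable exons had 2.1 and 2.69 with the alpha end, 0.622 and 0.835 with the gamma variable exons (from 1.69 and 1.53), 1.56 with the beta cluster in NCC, and among themselves 1.47 in NCC Hi-C and 0.692 in NCC CTCF HiChIP. The beta cluster with itself rose to 1.15 in NCC Hi-C, and the gamma variable exons with themselves dropped to 0.377 and 0.487 by Hi-C and 0.281 and 0.367 by CTCF HiChIP.

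The balanced expectation, added after seeing the data, gave 1.53 and 1.48 for the gamma variable exons with the gamma end, 1.25 and 1.54 for the beta cluster with the gamma end, and 1.62 and 1.62 for the alpha variable exons with the alpha end by Hi-C. It turned the alpha variable exons with the beta cluster to 1.22 in NCC, the alpha with the gamma variable exons to 0.845 and 0.922, the alpha variable exons among themselves to 0.913 in NCC CTCF HiChIP, and the gamma variable exons among themselves to 0.806 and 0.871 by Hi-C and 0.684 and 0.8 by CTCF HiChIP. An expectation from chromosome 18 alone gave 6.78 and 6.74 for the gamma variable exons with the gamma end.

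Over shared anchors, also added after seeing the data, 40 of 53 log2 ratios moved by less than their counting interval. For NCC over ESC Hi-C, the values that moved beyond it were the alpha variable exons among themselves (−0.19), the beta cluster with itself (−0.08) and with the gamma variable exons (−0.22), the alpha variable exons with the alpha end (−0.081), the alpha variable exons with the beta cluster (from −0.35 to 0.21) and the whole locus (−0.12). FGFR1 HiChIP turned to 0.29 for the gamma variable exons with the gamma end, 0.16 for the alpha variable exons and 0.21 for the whole locus, and moved to 0.76 for the beta cluster with itself and 0.25 for it with the gamma variable exons. NCC CTCF HiChIP over Hi-C dropped to 0.67 for the alpha variable exons among themselves and 0.24 for the whole locus.

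With interactions of at least 2 read pairs only, the Hi-C ratios were 7.82 and 7.69 for the gamma variable exons with the gamma end, 2.82 and 2.8 for the beta cluster with the gamma end, and 1.08 and 0.801 for the alpha variable exons with the alpha end. The log2 ratio of NCC to ESC turned to 0.12 for the alpha variable exons with the beta cluster by Hi-C and reached −1.17 for the alpha variable exons with the alpha end by CTCF HiChIP. CTCF HiChIP over Hi-C rose in ESC to 1.76 for the gamma variable exons with the gamma end, 1.82 for the beta cluster with the gamma end, 2.84 for the alpha variable exons with the alpha end and 0.85 for the whole locus, and turned to −1.05 for the beta cluster with the gamma variable exons. In NCC it was 2.08 and 1.96 for the first 2 of these and 1.18 for the whole locus. By library totals the ESC value of the whole locus was 0.094, with 0 bin pairs called higher and 1 lower.

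Calls of bin pairs depended on bin size and filter. With 25 kb bins NCC Hi-C had 0 higher and 3 lower, and CTCF HiChIP over Hi-C 0 higher in ESC and 0 in NCC. Without a filter (at least 1 read pair) these were 0, 3, 0 and 1. With at least 20 read pairs 1 bin pair was lower in NCC FGFR1 HiChIP and 1 higher in NCC CTCF HiChIP than in Hi-C. The paired t-test over nested bins, adapted from the study's methods, called 0 higher and 0 lower between NCC and ESC Hi-C after Benjamini-Hochberg adjustment. Bins with an anchor strength ratio of at least 2 numbered 0 in ESC and 0 in NCC with 10 kb bins or with at least 20 expected ends, and 4 and 4 with all pairs outside a single anchor. Those with at most 0.5 numbered 8 and 7, 2 and 1, and 8 and 4. With windows of 20 kb the median CTCF HiChIP contact of gene starts rose to 7.01 and 8.09 for alpha, 6.95 for beta in NCC and 7.64 for gamma in ESC.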
